A study of Homo sapiens with 9 samples.

Results

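Among the open chromatin regions found in every library of this series, 1564 spanned at least 1500 bp, and they are described here as the widest constitutive regions. They were chosen by merging the peak intervals of all 9 libraries on chromosomes 1 to 22 and X where these shared at least 1 bp, and by keeping merged regions that all 9 libraries held and that were 1500 bp or wider. They made up 1.21% of all 128994 merged regions and 2.62% of the 59637 regions held by all 9 libraries. The other 58073 shared regions were narrower and serve for comparison. No region of 1500 bp or more was held by fewer than 9 libraries. Width and presence chose the members, so these, and the covered width and continuity read from the same intervals, are given as descriptions without a test.

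The libraries came from 22Rv1, a human prostate carcinoma line, edited so that the splicing factor SF3B1 carries the C1111S change. This edit was present in all 3 groups, controls included, and the labels do not say whether the edited cells are 1 clone. Cells received DMSO at 0.1% (the vehicle), the compound WX-02-23 at 20 µM or the compound WX-02-43 at 20 µM, each for 3 h, with 3 libraries per group. The labels call the compounds stereoprobes, and the series concerns covalent molecules that act on FOXA1, a pioneer factor that opens chromatin in prostate epithelium.

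ATAC-seq marks open chromatin by letting a transposase insert adapters where DNA is free of nucleosomes. Most open sites are a single short gap between nucleosomes, whereas a wide site joins several such gaps, as is usual at the promoters of broadly active genes and at clustered enhancers. A genome and an annotation of hg19, the build of the peak lists, were not used here, so the regions are given by position, without gene names or sequences.

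The 9 lists held 81962 to 105132 peaks covering 33.8 to 45.7 Mb. The widest regions held 2.14% to 3.19% of the peaks of a list and 5.29% to 6.30% of its peak bases. Depth is known only indirectly. The deposited fold enrichment and p-value of each peak give its summit pileup (the stacked fragments at the highest point) and its local background, and the commonest background ran from 1.002 to 1.41 fragments per list. Nothing in the labels states that the libraries of a group came from different cultures. The p-values below therefore measure the spread between these samples only, and part of it may be technical.

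Merged widths ran from 1500 to 3129 bp with a median of 1643 bp. The distribution was steep, with 593 members under 1600 bp and 120 of 2000 bp or more. The 3 regions just inside, all of 1500 bp, had mean fold enrichments of 8.83, 9.66 and 7.17 and mean summit pileups of 96.7, 71.4 and 88.2 fragments. The 3 regions just outside, all 1 bp under the limit, had mean folds of 9.26, 9.77 and 9.63 and mean pileups of 109, 77.8 and 92.4.

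The widest constitutive regions were tall but stood on a raised background. Their median summit pileup was 88.2 fragments, against 76.8 in shared regions of 1000 bp to under 1500 bp, 35.2 in those of 500 bp to under 1000 bp and 21.6 in those under 500 bp. Local background rose along the same classes, from 1.73 fragments under 500 bp through 2.58 and 5.97 to 9.04 in the widest. Fold enrichment, which is the summit pileup plus 1 over the background plus 1, did not follow. Its median was 7.26, 9.58 and 10.8 in the 3 narrower classes and 8.71 in the widest regions. In pileup the widest regions ranked first of the 4 classes, and in fold they lay below both middle classes.

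**Figure D1:**
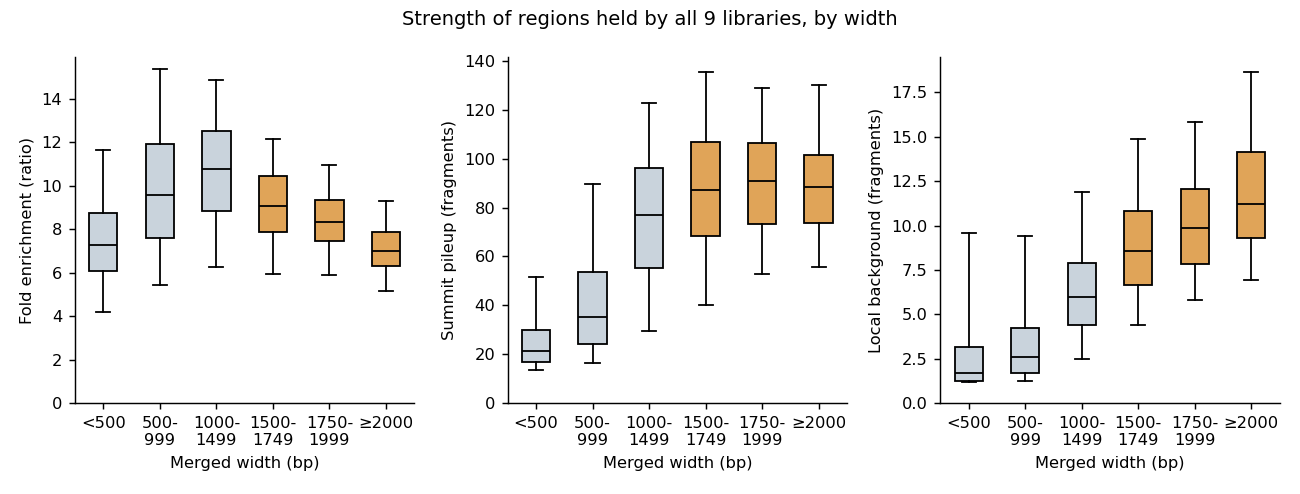
Fold enrichment, summit pileup and local background (vertical axes, mean over 9 libraries) of shared regions by merged width. Boxes are quartiles with the median, whiskers the 5th to 95th percentile, and orange boxes the widest regions. Fold is highest at 1000 bp to under 1500 bp, while background keeps rising to a median of 11.2 fragments at 2000 bp or more.

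Among the widest regions themselves the same pattern went on. In order of width, from the narrowest 1117 members through the next 327 to the 120 of 2000 bp or more, median fold went from 9.06 to 8.32 to 6.98. Background rose from 8.57 to 9.85 to 11.2 fragments while the summit pileup stayed level at 87.3, 91.0 and 88.4. Across the 1564 regions, width correlated with fold at r = -0.338 and rho = -0.297, with background at r = 0.293 and rho = 0.231, and with pileup at r = 0.0387 and rho = 0.0251. These are correlations across regions of the same libraries and are descriptions only.

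The background of the members was itself a local count. In 100% of member peaks it was a whole multiple of 0.015 fragments (within 0.02 of a step), which is what 1 fragment of 150 bp adds when spread over a window of 10000 bp. None of the member peaks sat at the lowest background of its list, where 23.1% of all peaks lay. Read this way, the window around a member summit held a median of 603 fragments (144.7 to 2001), against 398 around regions of 1000 bp to under 1500 bp and 174 around all narrower regions. A member lies inside its own window, so its own fragments count toward the background that its fold is measured against.

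The widest region, 3129 bp on chromosome 2 from 10151272 to 10154400, had folds of 4.25, 4.40 and 4.21 in DMSO, 4.15, 4.25 and 4.39 with WX-02-23 and 4.48, 4.22 and 4.28 with WX-02-43. Its summit pileups of 117 to 144 fragments lay above the upper quartile of the members (106), but its background averaged 30.0 fragments, the highest of all members. Its fold ranked low, down to the 2.51 percentile in the least favourable list. The groups overlapped in this region, and the largest difference in fold, WX-02-23 against WX-02-43, was -0.11 ± 0.10 (SE) on the log2 scale (limma with Benjamini-Hochberg adjustment, adjusted p = 0.723).

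The next widest regions were 2778 bp on chromosome 16 from 89786604 to 89789381, with a mean fold of 4.58, 2664 bp on chromosome 5 from 14142919 to 14145582, with 6.87, and 2624 bp on chromosome 12 from 31476876 to 31479499, with 6.30. A region of 2507 bp on chromosome 12 from 46383526 to 46386032 was nearly as wide and far more compact. All 9 libraries covered 88.5% of it together, 5 held it as 1 unbroken peak, and its summits lay within 12 bp of one another. A region of 2503 bp on chromosome 3 from 32279547 to 32282049 was the opposite. All 9 libraries covered only 27.4% of it, and it held 2 to 6 separate peaks per library.

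The regions that ranked highest by fold in every list were close to the minimum width, at 1507 to 1655 bp for the first 8. The strongest lay on chromosome 5 from 74806552 to 74808058. Its folds were 14.7, 16.4 and 14.9 in DMSO, 14.9, 16.0 and 17.2 with WX-02-23 and 14.9, 15.9 and 15.6 with WX-02-43, so the 3 groups overlapped throughout. Its summit pileup averaged 122 fragments on a background of 6.89. The next ones, on chromosome 16 from 56484797 to 56486322 and on chromosome 12 from 118573246 to 118574814, had mean folds of 14.5 and 13.8. Of these 8 strongest regions, 3 lay on chromosome 12, which also had the largest share of its shared regions among the widest (113 of 3530, 3.20%). The smallest share was on chromosome X (23 of 1472, 1.56%).

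Few of the widest regions were a single peak in every library. All 9 libraries held 300 of them (19.2%) as 1 unbroken peak, 119 (7.61%) were broken in every library, and 1145 were unbroken in some libraries only. By comparison, 46.5% of regions of 1000 bp to under 1500 bp and 98.8% of those under 500 bp were unbroken in all 9. In 70.1% of members at least 1 library had a single peak of 1500 bp or more, and in 5.24% all 9 libraries did. The other 467 members (29.9%) reached the width only when peaks of several libraries were joined.

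The stretches that all 9 libraries covered together made up a median of 70.7% of a member, or 1185.5 bp. In 63.9% of members these common stretches came in 2 or more separate pieces, a share that reached 91.7% at 2000 bp or more and was 31.8% at 1000 bp to under 1500 bp. Where a member was broken, the median gap between neighbouring peaks was 93 to 119 bp per library, and 64.4% to 81.3% of gaps were 150 bp or less. The lists held no gap under 51 bp. Within 1 library a member held 1.56 peaks on average, against 1.23 at 1000 bp to under 1500 bp.

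Unbroken members were the stronger ones and also the narrower ones. Their median width was 1600 bp, against 1722 bp in members broken in every library, and fold fell with width among members. The 300 unbroken in all 9 libraries had a median pileup of 104 fragments and a median fold of 8.98, and 83.5% of their width was common to all libraries. The 119 broken in every library had 71.7 fragments, a fold of 7.75 and 55.9% in common. Breaks, pileup and fold come from the same peak calls, so these values describe the calls and carry no test.

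Summits of the 9 libraries lay within 100 bp of one another in 819 members (52.4%), close to the 54.1% of narrower regions, and the median range was 92.5 bp against 92 bp. In 279 members (17.8%) they spanned more than 500 bp, which was true of 33.3% of members of 2000 bp or more and of 8.72% of regions of 1000 bp to under 1500 bp. Narrower regions have less room for such a span, and those under 500 bp have none. Summits also lay further from the middle. Their median offset was 15.7% of the width in members against 9.59% in narrower regions. The outer edges had a median SD over libraries of 41.2 bp on the left and 41.0 bp on the right, close to the 43.1 and 42.7 bp at 1000 bp to under 1500 bp and above the 33.3 and 33.5 bp of all narrower regions.

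The widest regions were scattered. The nearest other member lay a median of 355281 bp away, and 22 members had another within 10000 bp. The nearest shared region of any width lay a median of 12223 bp away, against 11124 bp for narrower regions.

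**Figure D2:**
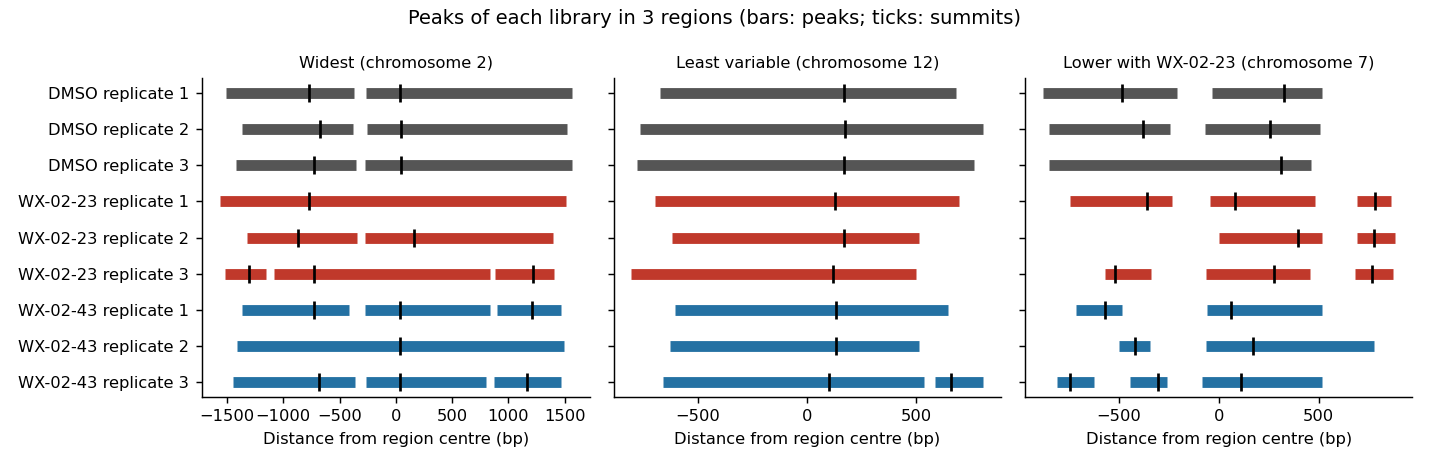
Peaks of each library (bars) and their summits (ticks) in 3 of the widest regions, as distance from the region centre in bp, with DMSO in grey, WX-02-23 in red and WX-02-43 in blue. The widest region was broken in 7 of 9 libraries, the least variable one in 1, and the region on chromosome 7 has a peak on its right side in all 3 WX-02-23 libraries.

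Whether treatment changed the widest regions as a set was asked with 1 value per library. The median fold of the members relative to that of narrower shared regions, in log2 units, was 0.06, -0.06 and -0.12 in DMSO, -0.11, 0.003 and -0.02 with WX-02-23, and 0.11, -0.01 and -0.03 with WX-02-43. The groups overlapped, with means of -0.04 ± 0.09, -0.04 ± 0.06 and 0.02 ± 0.08 (SD, n = 3 each). Over the 280 ways to divide the libraries into 3 groups, the exact permutation p was 0.554. No pair of groups gave an exact two-sided permutation p under 0.4, where 3 libraries against 3 cannot go below 0.1. With the summit pileup in place of fold, the means were 1.46 ± 0.06, 1.44 ± 0.04 and 1.45 ± 0.05 (exact permutation p = 0.9, an alternative chosen after seeing the data).

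Covered width and continuity likewise overlapped between groups. A member was covered over a median of 1414, 1493 and 1525.5 bp in the DMSO libraries, 1518, 1414 and 1427 bp with WX-02-23 and 1371.5, 1454 and 1474 bp with WX-02-43. The means were 1478 ± 57.3, 1453 ± 56.7 and 1433 ± 54.3 bp (SD, n = 3 each). The share of members held as 1 unbroken peak was 48.8%, 59.1% and 62.7% in DMSO, 63.6%, 49.4% and 51.0% with WX-02-23, and 46.9%, 54.1% and 55.2% with WX-02-43. Its means were 56.9% ± 7.21, 54.7% ± 7.78 and 52.1% ± 4.48 (SD, n = 3 each).

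The relative fold moved with the length of the list. Over the 9 libraries it fell with the number of peaks (r = -0.901, exact permutation p = 0.00215; rho = -0.75, p = 0.0255). Adjusted by Benjamini-Hochberg over the 3 relations computed with list length, the exact permutation p was 0.00503 for r and 0.0255 for rho. Without the 2 libraries farthest from the median length, r was -0.857 (exact permutation p = 0.0292). The members' own median fold varied little, from 8.51 in WX-02-43 replicate 3 to 8.93 in WX-02-23 replicate 3. That of narrower regions ran from 8.19 in WX-02-43 replicate 1 to 9.56 in DMSO replicate 3. The relative fold therefore moved mainly through the narrower regions. DMSO replicate 3 and WX-02-23 replicate 1 had the longest lists and the most unbroken members, and DMSO replicate 1 and WX-02-43 replicate 1 the shortest lists. With every list shortened to the length of the shortest, the unbroken share still ran from 47.2% to 68.7% and covered width from 1371 to 1520 bp, with the same libraries at the ends, WX-02-43 replicate 1 lowest in both. The part of sequencing depth in these values was not tested.

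**Figure D3:**
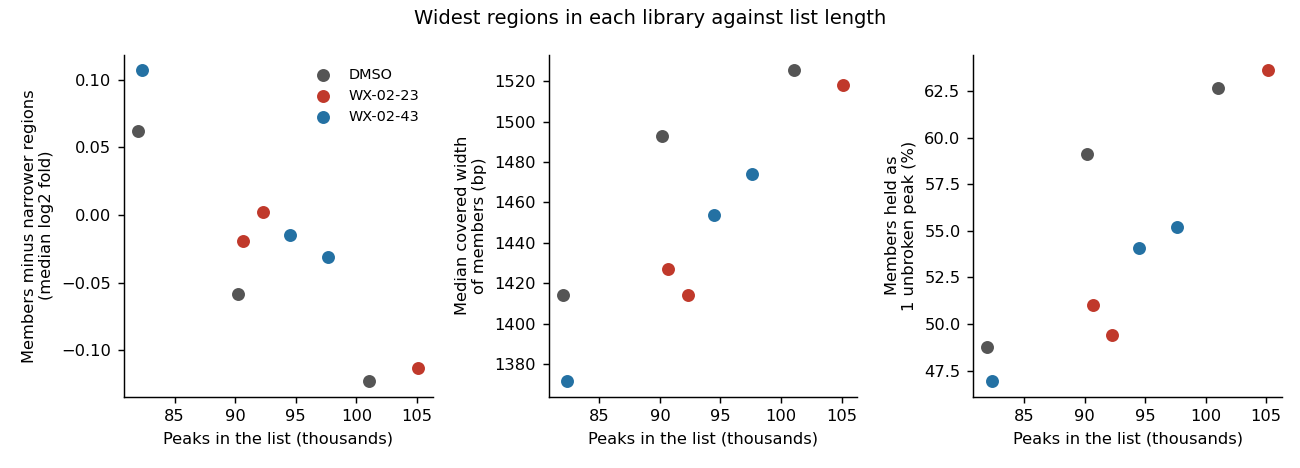
Values of the widest regions in each library against the number of peaks in its list, with 1 point per library coloured by group. They are log2 fold relative to narrower shared regions, covered width in bp and percent unbroken. The 3 groups overlap on every vertical axis, and the relative fold falls as lists grow from 81962 to 105132 peaks.

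Region by region, the widest regions hardly differed in fold between treatments. The test was limma on the log2 of the highest fold per library, over all 59637 shared regions, with Benjamini-Hochberg adjustment and a threshold of 0.05. The rule that all 9 libraries hold a member leaves out regions that a treatment removed or created outright. For WX-02-23 against DMSO, no member was higher, where 0.741% of all shared regions were, and 1 was lower, where 0.937% were. At an unadjusted p under 0.05 there were 6 higher and 10 lower members (1.02% of members in all, against 12.2% of all shared regions). In 37 members every WX-02-23 library lay above every DMSO library (2.37%, against 7.1% of all shared regions). In 42 every one lay below (2.69%, against 8.62%).

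For WX-02-43 against DMSO, which shares the DMSO libraries with the first comparison, no member passed the test in either direction, where 0% and 0.00168% of shared regions did. At an unadjusted p under 0.05, limma gave 25 higher and 2 lower members (1.73% of members in all, against 7.47% of all shared regions). With the summit pileup in place of fold the counts were again 0 and 0, where 0.00335% and 0.00503% of shared regions passed. Fold did not overlap between these groups in 119 higher members (7.61%, against 6.77% of all shared regions) and 16 lower ones (1.02%, against 5.45%).

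The compounds were compared directly at the same dose and time. No member was higher with WX-02-23 than with WX-02-43, where 0.525% of shared regions were, and 1 was lower, where 1.12% were. At an unadjusted p under 0.05, limma gave 3 higher and 31 lower members (2.17% of members in all, against 13.02% of all shared regions). Without overlap, 15 members were higher (0.959%, against 7.13% of shared regions) and 177 lower (11.3%, against 11%). In this comparison the share of members past the adjusted threshold was 0.0639% in all, against 1.68% of narrower regions.

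The small shifts of the members as a set depended on the scaling and on single libraries. The median log2 difference of the members was 0.002 for WX-02-23 against DMSO, 0.06 for WX-02-43 against DMSO and -0.06 for WX-02-23 against WX-02-43, against -0.005, 0.02 and -0.02 over all shared regions. For WX-02-43 against DMSO, 80.3% of members had a positive difference. With quantile normalization 79.9% were, and without centring 39.3% were, with medians of 0.06 and -0.02 where all shared regions had 0.009 and -0.07. The median was 0.02 (60.0% positive) without DMSO replicate 3, 0.02 (61.9%) without WX-02-43 replicate 1 and 0.12 (91.1%) when DMSO replicate 1 was left out. For WX-02-23 against WX-02-43 the negative share was 79.8%, then 76.5% with quantile normalization and 33.6% without centring, where the medians were 0.03 in members and 0.07 over all shared regions. It was 61% (median -0.02) without WX-02-43 replicate 1 and 62.5% (-0.03) without WX-02-23 replicate 1. Centring on the members sets their own balance near 50% by construction and says nothing of direction. In these settings the members lay above all shared regions for WX-02-43 against DMSO and below them for WX-02-23 against WX-02-43, by a small amount that was not tested. With the summit pileup the order was the other way, at 0.009 in members against 0.02 in the first of these comparisons and -0.008 against -0.01 in the latter. In fold with the main scaling, regions of 1000 bp to under 1500 bp had medians of 0.051 and -0.050 in these comparisons. Narrower regions in the strongest of 5 bands of summit pileup (described below) had 0.053 and -0.051. The shifts were therefore not particular to the members.

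The intervals bound how far members could differ in fold, and do not bound the summit pileup. A member's own fragments count toward the background that its fold is measured against. For WX-02-23 against DMSO the 95% limma interval of the difference lay within 1.5-fold either way for 1560 of the 1564 members (99.7%), against 86.9% of narrower regions. The counts were 1560 for WX-02-43 against DMSO and 1559 for WX-02-23 against WX-02-43. Estimates beyond 1.2-fold occurred in 9, 11 and 14 members (0.575%, 0.703% and 0.895%), against 14.4%, 9.26% and 15.0% of narrower regions. The median interval ran 0.23 either side on the log2 scale in members and 0.26 in narrower regions. Narrower regions of high pileup were close to the members. In the strongest of 5 bands of summit pileup (described below), their median SE for WX-02-23 against DMSO was 0.103, against 0.106 in members. Their median absolute log2 difference was 0.051, against 0.050 in all members and 0.045 in members of that band.

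**Figure D4:**
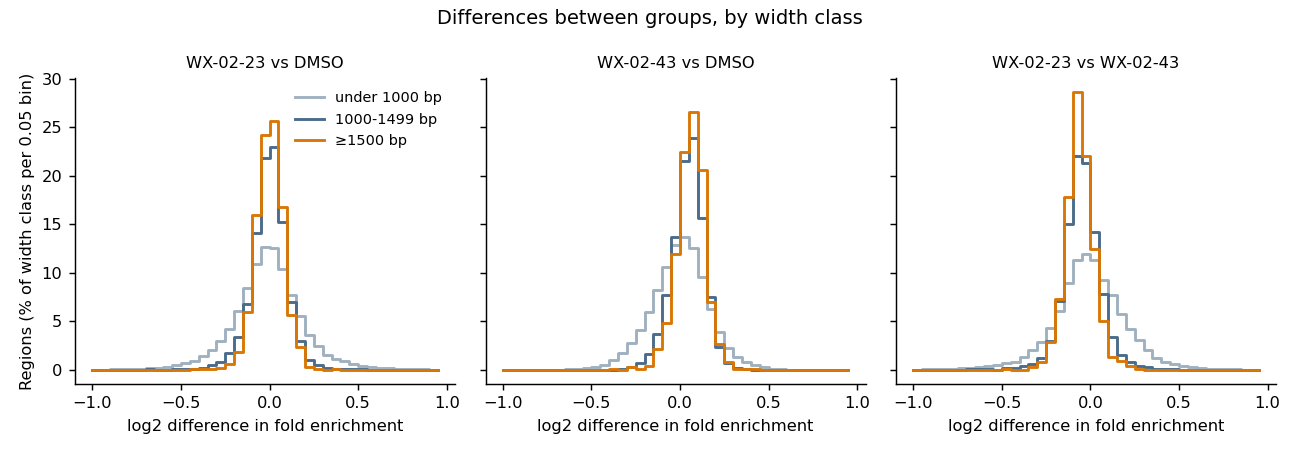
Distribution of log2 differences in fold enrichment (horizontal axis) between groups, as the percent of each width class per bin of 0.05, for the 3 comparisons. The widest regions (orange) and those of 1000 bp to under 1500 bp (dark blue) form narrow peaks near 0, and regions under 1000 bp (light) spread wider.

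Shared regions of 1000 bp to under 1500 bp were also seldom called, 0.373% for WX-02-23 against DMSO and 0.362% for WX-02-23 against WX-02-43. When all shared regions were ranked by mean summit pileup and divided into 5 bands of like size, 1249 members (79.9%) fell in the strongest band, of 65.3 fragments or more. For WX-02-23 against DMSO, 2.60%, 3.13%, 2.12%, 0.504% and 0.0336% of regions were called from the weakest to the strongest band. Of the members in the strongest band, none was called, and of 10668 narrower regions in it, 4 were (0.0375%). At an unadjusted limma p under 0.05 there were 6 such members (0.480%) and 131 such narrower regions (1.23%). Within the band the median pileup was 95.4 fragments in members and 85.4 in narrower regions, so the band does not match them in pileup. For WX-02-23 against WX-02-43 the narrower regions of that band had 6 calls (0.0562%), and the members none. At an unadjusted limma p under 0.05 there were 18 such members (1.44%) and 258 such narrower regions (2.42%). The median spread told the same: the SD of log2 fold over the 9 libraries was 0.11 in members and 0.11 in regions of 1000 bp to under 1500 bp, against 0.15 and 0.20 in the next classes.

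The 1 member called lay on chromosome 7 from 7493309 to 7495069, 1761 bp wide, and it was lower with WX-02-23 than in either other group. Its folds were 7.76, 8.49 and 8.02 in DMSO, 6.24, 5.80 and 6.29 with WX-02-23, and 8.18, 7.80 and 7.84 with WX-02-43. Every WX-02-23 library lay below the other 6, which overlapped one another. It fell by 0.41 ± 0.09 (SE) on the log2 scale against DMSO (limma with Benjamini-Hochberg adjustment, adjusted p = 0.0498) and by 0.47 ± 0.09 against WX-02-43 (adjusted p = 0.027). WX-02-43 differed from DMSO by 0.06 ± 0.09 (adjusted p = 0.929).

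Its summit pileup changed more. It was 39, 50 and 49 fragments in DMSO, 31, 23 and 22 with WX-02-23, and 37, 42 and 42 with WX-02-43, and fell by 0.84 against DMSO (limma with Benjamini-Hochberg adjustment, adjusted p = 0.001) and by 0.70 against WX-02-43 (adjusted p = 0.00352). The call against DMSO sat at the threshold. Over 19 other settings its adjusted p ran from 0.001 to 0.152 and stayed under 0.05 in 4, and it was lost without any 1 of the 9 libraries (limma with Benjamini-Hochberg adjustment, adjusted p from 0.0539 without WX-02-43 replicate 1 to 0.152 without DMSO replicate 2). Its log2 difference stayed between -0.46 and -0.39 in those fits. Against WX-02-43 the adjusted p ran from 0.00352 to 0.104 and stayed under 0.05 in 9. That call was lost without any 1 of the 6 compound libraries (limma with Benjamini-Hochberg adjustment, adjusted p from 0.0664 to 0.0969), with log2 differences between -0.49 and -0.42. With the width-weighted mean fold this region was called in neither comparison (limma with Benjamini-Hochberg adjustment, adjusted p = 0.151 and 0.104). The 1 lower member called with that setting in each comparison was another region.

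The region was weak for its width, with a mean pileup of 37.2 fragments and 26.1% of its width common to all 9 libraries. Its layout differed as well. All 3 WX-02-23 libraries had a separate peak on the right, at bases 1575 to 1743, 1575 to 1761 and 1564 to 1752 counted from the left end, with folds of 4.86, 5.80 and 6.29. No DMSO library covered that stretch, and 1 WX-02-43 library, replicate 2, reached base 1655. In WX-02-23 replicate 2 this right peak was the highest point of the region, so the compared summits were not at the same place in all libraries (their range was 714 bp). The central peak, which all 9 libraries held, had folds of 7.76 to 8.49 in DMSO, 5.32 to 6.29 with WX-02-23 and 7.80 to 8.18 with WX-02-43.

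Summit pileup gave a few more calls than fold. For WX-02-23 against DMSO, limma on the log2 pileup called 4 members higher and 4 lower, where 3.62% and 2.53% of all shared regions were called. Against WX-02-43 it called 1 higher and 2 lower, where 1.97% and 2.98% were. The pileup carries no correction for local background, and these members are named after their values were seen.

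The lower ones beside the chromosome 7 region were on chromosome 1 (177841179 to 177842722), chromosome 11 (64948394 to 64949997) and chromosome 19 (15442248 to 15443891). The chromosome 1 region had pileups of 44, 62 and 53 in DMSO, 42, 26 and 38 with WX-02-23 and 52, 53 and 56 with WX-02-43, so WX-02-23 lay below both other groups without overlap. It fell by 0.57 ± 0.14 (SE) against DMSO (limma with Benjamini-Hochberg adjustment, adjusted p = 0.0349) and by 0.64 ± 0.14 against WX-02-43 (adjusted p = 0.0228). In fold it missed the threshold in both comparisons (limma with Benjamini-Hochberg adjustment, adjusted p = 0.0867 and 0.0608). The summits of this region spanned 772 bp. That of WX-02-23 replicate 2 lay at base 1434 from the left end, and those of the other libraries at 662 to 721.

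The higher ones included a region of 1629 bp on chromosome 5, from 16615857 to 16617485, and one of 1503 bp on chromosome 12, from 104612973 to 104614475. The other two lay on chromosome 7, at 112810513 to 112812039, and on chromosome 17, at 17596863 to 17598380. The chromosome 5 region had pileups of 29, 34 and 39 in DMSO, 48, 43 and 41 with WX-02-23 and 32, 32 and 34 with WX-02-43. It was higher with WX-02-23 by 0.41 ± 0.11 (SE) against DMSO (limma with Benjamini-Hochberg adjustment, adjusted p = 0.0438) and by 0.42 ± 0.11 against WX-02-43 (adjusted p = 0.0473). Its summits spanned 1099 bp, so these pileups were not all taken at the same place. Counted from the left end, they lay at bases 251, 1247 and 1257 in DMSO and 186, 417 and 473 with WX-02-23. With WX-02-43 they lay at 1281, 929 and 182.

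The chromosome 12 region passed in pileup and not in fold. Its pileups were 62, 64 and 81 in DMSO, 103, 89 and 91 with WX-02-23 and 69, 91 and 86 with WX-02-43, and the log2 rise against DMSO was 0.49 ± 0.10 (limma with Benjamini-Hochberg adjustment, adjusted p = 0.013). Its folds of 7.87, 7.73 and 9.01 in DMSO and 7.91, 8.54 and 7.90 with WX-02-23 overlapped and differed by -0.02 ± 0.10. All 9 libraries held this region as 1 unbroken peak, and their summits spanned 624 bp. This span separated WX-02-23 from the other groups. Counted from the left end, summits lay at bases 951, 895 and 952 in DMSO and 330, 330 and 346 with WX-02-23. With WX-02-43 they lay at 954, 951 and 948. The background there averaged 7.51 fragments in DMSO and 10.8 with WX-02-23. Pileup and fold were therefore compared at different places in the region.

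**Figure D5:**
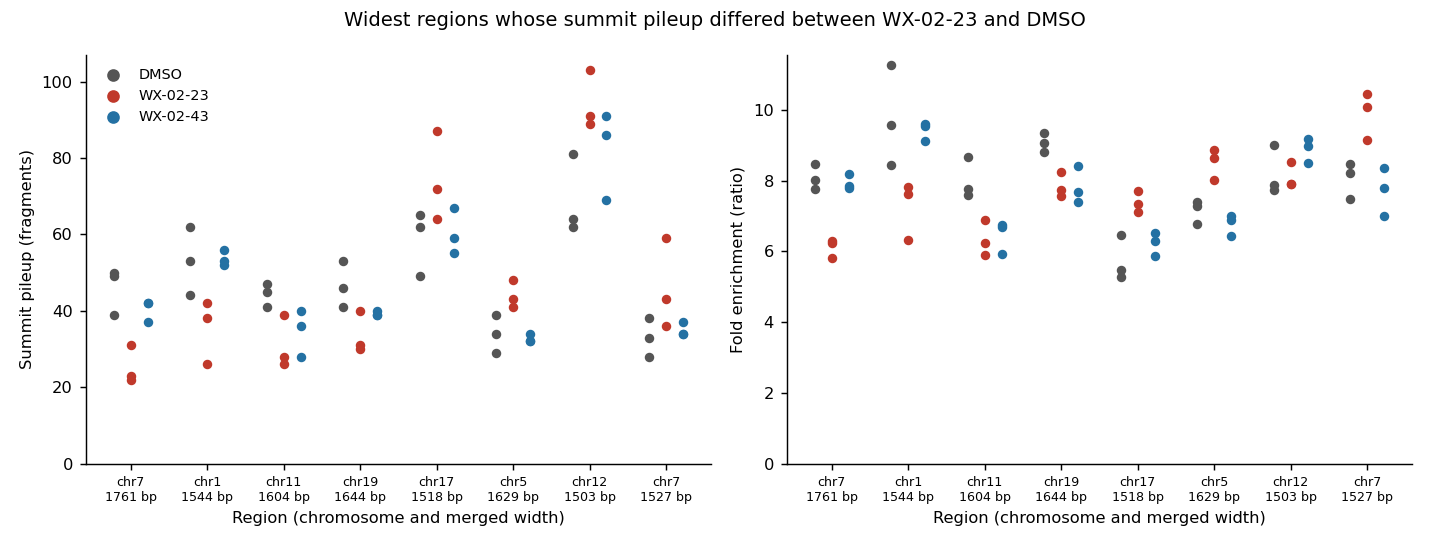
Summit pileup in fragments (left) and fold enrichment as a ratio (right) in each library for the 8 widest regions whose pileup differed between WX-02-23 and DMSO, ordered by that difference, with DMSO in grey, WX-02-23 in red and WX-02-43 in blue. The first region, on chromosome 7, separates WX-02-23 from the other 6 libraries in both panels, and the region on chromosome 12 separates it from DMSO in pileup only.

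Of the members not called by fold, the largest rise with WX-02-23 was that of the chromosome 17 region, with folds of 5.28, 6.46 and 5.48 in DMSO and 7.71, 7.13 and 7.33 with WX-02-23 (log2 difference 0.36 ± 0.11 SE, limma with Benjamini-Hochberg adjustment, adjusted p = 0.12). For WX-02-43 the member with the lowest p among those higher was on chromosome 12 from 71832650 to 71834268. Its folds were 7.53, 7.57 and 7.85 in DMSO, 9.04, 9.66 and 9.98 with WX-02-43 and 8.75, 8.03 and 8.94 with WX-02-23. Both compounds lay above DMSO without overlap, yet the difference for WX-02-43 of 0.40 ± 0.09 did not pass (limma with Benjamini-Hochberg adjustment, adjusted p = 0.355). The member with the lowest p among those lower with WX-02-43 was on chromosome 16 from 89118676 to 89120198, with folds of 5.62, 6.35 and 6.52 in DMSO and 4.26, 4.76 and 4.43 with WX-02-43 (log2 difference -0.37 ± 0.09, limma with Benjamini-Hochberg adjustment, adjusted p = 0.376).

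The steadiest member lay on chromosome 12 from 129307636 to 129309249, with folds of 10.6, 11.3 and 11.2 in DMSO, 11.2, 11.1 and 10.9 with WX-02-23 and 10.5, 10.9 and 10.8 with WX-02-43. Its SD of centred log2 fold over the 9 libraries was 0.04, and 8 libraries held it unbroken. The most variable member, on chromosome 10 from 17658464 to 17660000, had an SD of 0.26. Its folds were 7.38, 7.78 and 10.1 in DMSO and 6.60, 6.44 and 10.7 with WX-02-23, with the replicate 3 library high in both groups, and 8.80, 9.14 and 8.88 with WX-02-43. Its pileups of 18 to 38 fragments were low for a member.

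Treatment could also have changed the outline of a member without changing its fold. A stretch of at least 150 bp covered by all 3 WX-02-23 libraries and no DMSO library occurred in 9 members (0.575%), where 0.258% of all shared regions had one. The opposite, covered by all DMSO and no WX-02-23 libraries, occurred in 8 members (0.511%), where 0.211% did. For WX-02-43 against DMSO, 1 member (0.0639%) had a stretch only with WX-02-43, where 0.0352% of shared regions did. A stretch only with DMSO occurred in 11 members (0.703%), where 0.198% of shared regions had one. For the compounds against each other, 9 members (0.575%) had one only with WX-02-23, where 0.329% of shared regions did. Only with WX-02-43 it was 2 members (0.128%), where 0.137% of shared regions had one. Wider regions have more bases where such a stretch can lie, these counts were added after seeing the data, and they carry no test.

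The longest of these in the first comparison were a 215 bp stretch present with WX-02-23 on chromosome 13, in the region from 57101584 to 57103124, and a 241 bp stretch missing with WX-02-23 on chromosome 14, in the region from 23770442 to 23772192. The chromosome 13 region had folds of 13.2, 11.6 and 12.03 in DMSO, 9.53, 10.6 and 10.8 with WX-02-23 and 12.03, 10.7 and 10.9 with WX-02-43. The WX-02-23 libraries lay below DMSO in fold and covered this stretch, which no DMSO library did. The difference in fold was not called. The chromosome 14 region had folds of 6.40, 6.28 and 6.87 in DMSO and 6.42, 6.72 and 7.16 with WX-02-23, which overlapped.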

How the data were processed

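A commercial ATAC-seq kit was used, per the labels' protocols. The submitters' processing notes name Bowtie2, the hg19 build and MACS2, and each deposited list belongs to 1 library. Versions, settings, the shift of read ends, duplicate removal and read totals were not given in the sources used here. The authors' deposited lists give each peak a score (not used), a −log10 p and −log10 q at its summit, and a fold enrichment (a ratio to local background), all set within 1 library.

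Fold and p were solved for a whole-number summit pileup and its background under a Poisson model, which matched the deposited −log10 p within 0.002 for 100% of peaks. Fragments are the units MACS2 stacked, reads or read pairs. The log2 of the highest fold per library and region was centred on each library's median over shared regions and tested with limma 3.58.1 in R 4.3.3 over all 9 libraries, with Benjamini-Hochberg adjustment over 59637 regions. The members' relative fold per library was tested by exact permutation (scipy 1.17.1). Covered width and the unbroken share come from the intervals that chose the members and are described only. Fits were tested on simulated data, where 100 regions were changed by 0.5 and 100 by 1 log2 units for WX-02-23. The fit recovered 17% and 83% of these against DMSO, with 4 false calls. The changed regions were drawn from all shared regions, so detection among members alone was not measured. Lists shared at most 0.12% of their exact intervals. Coordinates are hg19, counted from 1.

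Regions are named by a rule: the 8 widest, the 8 strongest by worst-list percentile of fold, up to 6 called per comparison and direction (otherwise the 2 of lowest p), the 3 lowest and 3 highest by SD, and 3 either side of 1500 bp. Values are printed for those the text turns on. The members and this rule were chosen with earlier results of these data known. Alternatives were other scalings, strength values, filters, a variance model, equal-length lists, joined peaks, single libraries left out and a replicate block.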

Additional observations from a re-analysis of the deposited data

How the results depend on the processing

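Of 77 alternatives other than leaving out a library, 58 kept their result within 1.5 times its count or on the same side of 0.05. The 58 include 4 for covered width and 4 for the unbroken share. Both are read from the intervals that chose the members, so their part of the tally lends no support. The tally compares counts, so a count can stay the same while another member is called, as with the width-weighted mean fold. The counts of members called for WX-02-43 against DMSO stayed at 0 under every setting run. For WX-02-23 against DMSO, lower members numbered 0 with quantile normalization, no centring, eBayes trend and robust or centring on the members, 3 with −log10 p, and 4 with summit pileup (3 when centred on the members), against 1. Higher members numbered 1 with −log10 p and 4 with pileup (3 when centred on the members), against 0. For WX-02-23 against WX-02-43, lower members numbered 0 with no centring, trend and robust or centring on the members, 2 with −log10 p and 2 with either pileup setting, against 1, and higher members numbered 1 with either pileup setting, against 0. Over all shared regions, calls for WX-02-23 against DMSO were 442 higher and 559 lower with fold, 234 and 283 with no centring, and 2157 and 1506 with pileup. The cause of these moves was not tested. Centring on the members and pileup for the relative fold were added after seeing the data.

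Without 1 library at a time, lower members ranged from 0 to 0 for WX-02-23 against DMSO and from 0 to 2 against WX-02-43, and the other 4 counts from 0 to 0. The exact permutation p of the relative fold ranged from 0.3 to 0.964. The number of members ranged from 1412 to 1543, and was 1528 with −log10 q of at least 5, 1524 with lists of equal length and 1495 where each library covered at least 50%. Replicates share only a number: deviations of same-numbered libraries correlated from -0.12 to 0.136 over 9 pairs and those of different numbers from -0.112 to 0.107, and not every library correlated best with its own number. With the replicate block, WX-02-23 had 0 lower members against DMSO and 1 against WX-02-43, no other member was called, and the exact permutation p of the relative fold was 0.667. The weakest member had a mean summit pileup of 16.7 fragments, and the part of depth in the values of weak members was not tested.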
